A study of Talpa occidentalis and Mus musculus with 35 samples.

Results

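In the annotation of the mole genome, 430 of 23336 gene lines spanned 200 kb or more from start to end, which was 1.84% of them. They were chosen by that span alone, so span and the lengths of their introns are given as descriptions. The 430 lines lay on 48 of the 2074 scaffolds that carried a gene and carried 423 different gene symbols, and 1 had no symbol. Together they covered 140 Mb, or 24.7% of the 568 Mb covered by any gene line. Neurexins, teneurins, glutamate receptors, axon guidance receptors, catenins and the dystrophin complex all had members among them, and olfactory receptors, solute carriers and ribosomal proteins had few or none.

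In mammals the span of a gene is set mainly by its introns, which are transcribed with the exons and removed by splicing, so a long gene takes longer to transcribe than a short gene that encodes a protein of the same size. Many of the longest mammalian genes encode receptors, channels and adhesion molecules of the nervous system, and several lie at common fragile sites, where chromosomes break when replication is slowed. In the gonad, sex is set by transcription factors, signalling proteins and steroid receptors, whose genes differ widely in length.

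The exon junctions that the longest introns interrupt are shown first, because the coding sequence on both sides is directly joined in the messenger RNA while very wide introns separate it in the genome. They are the junctions at the 5 longest mole introns that could be matched to an intron of a mouse gene of the same name, and each of those was the longest intron of the mouse gene as well. The sequence is that of the mouse (GRCm38, GENCODE M21), written on the coding strand from 5′ to 3′ with 30 bases of each exon, and the capitals mark the 3 bases on each side of the junction.
CTNNA2: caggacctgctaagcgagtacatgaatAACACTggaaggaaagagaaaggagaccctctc
IMMP2L: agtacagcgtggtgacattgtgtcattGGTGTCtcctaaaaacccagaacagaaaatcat
FAM19A1: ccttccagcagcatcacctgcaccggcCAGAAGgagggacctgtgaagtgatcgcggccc
SMYD3: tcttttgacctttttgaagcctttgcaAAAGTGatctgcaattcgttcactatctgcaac
ROBO2: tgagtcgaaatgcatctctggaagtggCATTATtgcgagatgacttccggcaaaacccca

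CTNNA2 encodes the neuronal α-catenin that links cadherins to actin, and its junction was interrupted by intron 5 of the mole model, which was 469 kb long, against 461 kb for intron 7 in the mouse (chr6:77143944-77605180, minus strand). IMMP2L encodes a subunit of the inner mitochondrial membrane peptidase. Its intron 2 was 428 kb in the mole and 518 kb in the mouse (chr12:41110944-41628763, plus strand). FAM19A1 encodes a small secreted protein of the brain, and its intron 1 was 390 kb in the mole and 408 kb in the mouse (chr6:96115755-96523334, plus strand). SMYD3, a lysine methyltransferase, had an intron of 366 kb in the mole and 311 kb in the mouse (chr1:179094403-179405282, minus strand). ROBO2, an axon guidance receptor for Slit proteins, had an intron 2 of 347 kb in the mole and 306 kb in the mouse (chr16:74046938-74352550, minus strand). Of these 5 introns, 3 were longer in the mole and 2 in the mouse.

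The study compared gonads of the Iberian mole Talpa occidentalis, whose females carry ovotestes, with gonads of the mouse, in 35 RNA libraries of 16 groups. The 19 mole libraries, all wild type, came from 3 stages. At embryonic day 15 they were of ovotestis and of testis (2 each), and after birth the ovotestis was split into its testicular part and its ovarian part, which were sequenced beside the testis, with 3 libraries of each at postnatal day 7 and 2 of each in adults. The 16 mouse libraries, 2 in each group, were ovaries of embryonic day 13.5 from an Fgf9 mutant, whose allele the labels do not give, and from the wild-type B6 strain, both labelled C57BL with a running number, and gonads of wild-type CD1 mice, ovary and testis separately, at embryonic day 13.5, at day 7 after birth and at the age of 10 weeks. The deposited file read here is the annotation of the mole assembly talOcc3 and holds no value for any library, so expression, markers and depth were not analysed here, and every result below describes gene models and not animals. Each gene line carried 1 transcript whose exon and coding lines were the same, so the models hold no untranslated parts, and spans run from the first to the last coding exon except where a gene line reached farther. Intervals in brackets are 95% intervals over genes (order statistics for medians, exact binomial for shares, exact Poisson for rates). Genes are not replicates, so no test was made.

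The median span of the long genes was 286 kb (276 to 298, n = 430), with quartiles at 235 and 367 kb, against 6.75 kb in the other 22906 gene lines. The threshold cut through a continuous range. The genes just inside it were PAM at 200.5 kb, PID1 at 201.0 kb, CNKSR2 at 201.5 kb, RAB3C at 201.6 kb and SHROOM3 at 201.8 kb. Those just outside it were GFRA1 at 199.3 kb, SLIT3 at 198.9 kb, MCTP1 at 198.8 kb, PLCE1 at 198.6 kb and MGAT5 at 198.4 kb. A limit of 150 kb would have taken 700 gene lines, 300 kb 190 lines, 500 kb 43 lines and 700 kb 11 lines.

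The longest gene line was AGBL4, which encodes an enzyme that trims glutamate from tubulin. It ran over 857 kb of scaffold 2 (72083011 to 72940119, plus strand) with 12 exons and 1451 coding bases. CTNNA2 spanned 831 kb of scaffold 9 (47652557 to 48483325, minus strand) with 16 exons. CSMD3, a transmembrane protein built of CUB and sushi domains, spanned 829 kb of scaffold 22 (23410567 to 24239634, minus strand) with 70 exons and 10964 coding bases. Also among the longest were CNTNAP2 (797 kb), a neurexin-related protein of myelinated axons, and LRP1B (794 kb), a large receptor of the LDL receptor family. SUGCT (791 kb) and IMMP2L (731 kb) encode mitochondrial enzymes, NELL1 (727 kb) a secreted protein with EGF-like repeats, and LRRTM4 (722 kb) a postsynaptic protein with leucine-rich repeats. Among the genes just named the number of coding exons ran from 3 in LRRTM4 to 77 in LRP1B, so similar spans were reached with few exons far apart and with many.

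**Figure D1:**
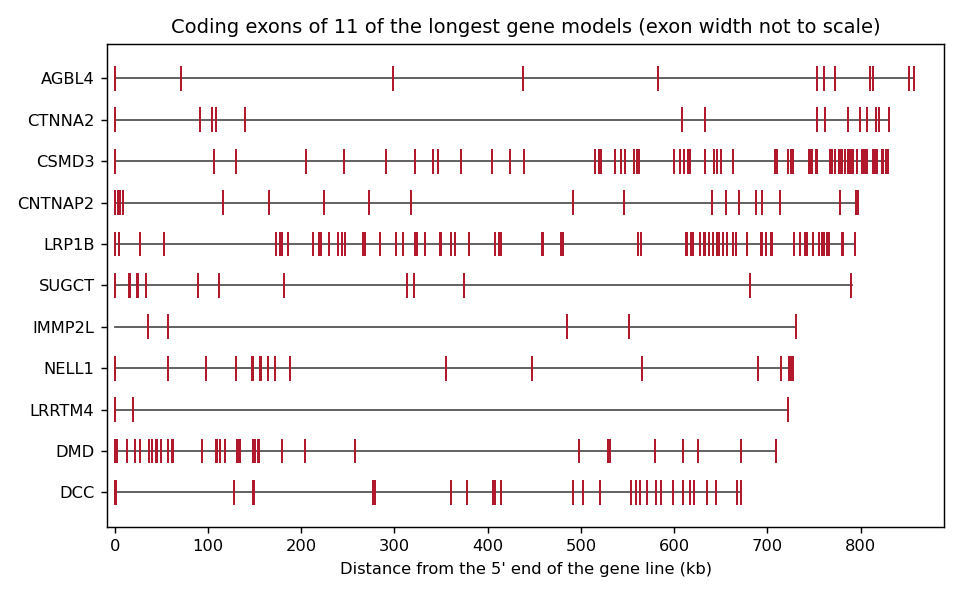
Coding exons (red ticks, width not to scale) of 11 of the longest gene models, drawn from the 5′ end of the gene line (x axis, kb). LRRTM4 had 3 coding exons, with 701 kb between the second and the third, whereas the 70 exons of CSMD3 were spread over its whole span and stood closest near the 3′ end.

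Long genes also had long coding sequences. Their median coding length was 2718 bases (2491 to 2916, n = 430), with quartiles at 1613 and 4332 bases, against 996 bases in the other gene lines (984 to 1008, n = 22906). The share of genes that were long went up with coding length, and was 0.156% below 500 coding bases, 0.538% from 500 to 999, 1.21% from 1000 to 1499, 1.82% from 1500 to 1999, 3.61% from 2000 to 2999, 7.22% from 3000 to 4999 and 14.3% at 5000 or more. Coding sequence still made up very little of a long gene. The median share was 0.856% of the span (0.781 to 0.935), against 17.4% in the others, and the whole set of long genes held 1.68 Mb of coding sequence in 140 Mb.

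The extremes of coding length were different kinds of gene. TTN, the giant elastic protein of the sarcomere, had 97403 coding bases in 286 exons, and coding sequence was 35.4% of its 275 kb. SYNE1 and SYNE2, which tie the nucleus to the cytoskeleton, had 26373 and 20748 coding bases in 143 and 115 exons. ADGRV1, an adhesion receptor of hair cells, had 18781 coding bases, and MACF1, which links microtubules to actin, had 16760. EFCAB3 had 142 exons and HMCN1, an extracellular matrix protein, had 105. At the other end, the model C10orf11_copy2 had 132 coding bases, PCDH9 307, MIR99AHG 315, TMEM178B 395 and FAM19A1 399. MIR99AHG is the name of a non-coding host gene of microRNAs, so its coding bases are those of the model and not of a known protein. The PCDH9 model held 2 exons of this protocadherin.

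**Figure D2:**
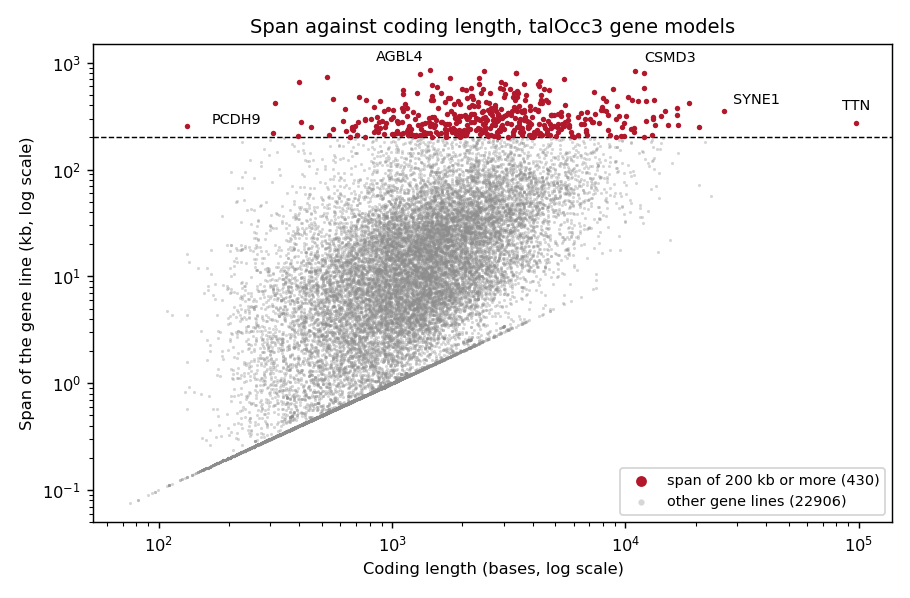
Span of every gene line (y axis, kb, log scale) against its coding length (x axis, bases, log scale). The 430 lines of 200 kb or more (red) lie above the dashed line at every coding length from 132 to 97403 bases, and the lower edge of the cloud is formed by models without introns.

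The long genes were next set beside other genes of the same coding length, in 7 classes of coding length and leaving out other genes without an intron, which left 17135. Weighted to the classes of the long genes, the other genes had a median of 14 exons, against 17 in the long genes (16 to 19). The typical intron differed more. The median of a gene's median intron was 6.78 kb in the long genes (6.09 to 7.89) and 1.14 kb in the other genes of the same coding length. This difference was widest in the shortest coding sequences, with 96.1 against 1.27 kb below 500 bases, where there were 7 long genes and the interval ran from 0.770 to 221.6 kb. It was 39.7 against 1.23 kb from 500 to 999 bases, and narrowest at 5000 bases or more, with 2.52 against 1.104 kb. In the class of 5000 bases or more the long genes also had more exons, 51 against 35, while from 500 to 999 bases both had 5. As the introns are part of the span by which the genes were chosen, these values describe how the span is made up.

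**Figure D3:**
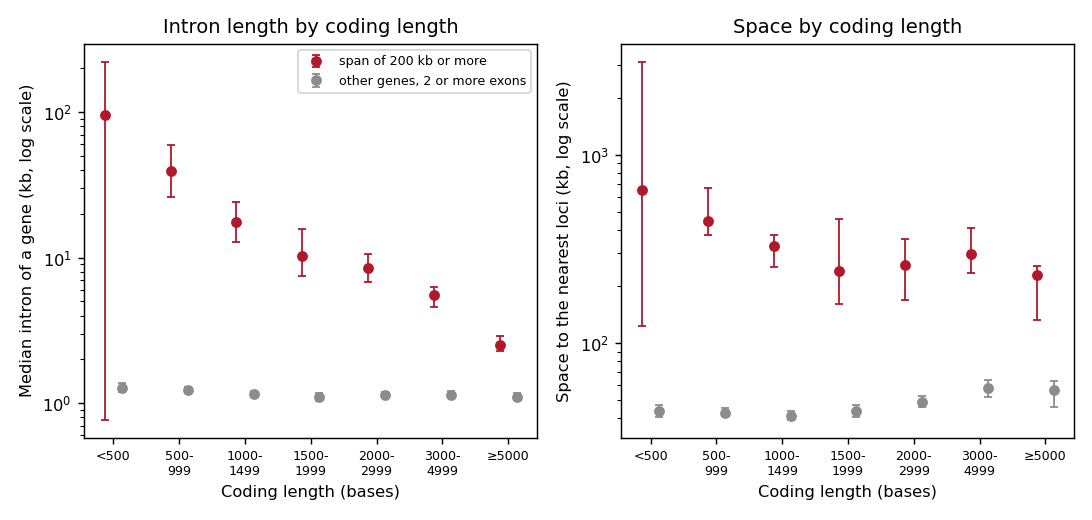
Medians with 95% intervals in 7 classes of coding length (x axis, bases) for genes of 200 kb or more (red) and for other genes with at least 2 exons (grey), both y axes in kb on a log scale. Left, the median intron of a gene narrows from 96.1 to 2.52 kb in long genes while other genes stay between 1.104 and 1.27 kb. Right, the space to the nearest loci lies between 231 and 654 kb for long genes, against 41.2 to 58.0 kb for other genes; the class below 500 bases holds 7 long genes.

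Most of the span of a long gene lay in a few introns. The longest intron had a median of 94.0 kb (89.6 to 103) and made up a median of 31.6% of the span (28.4 to 33.99), against 23.4% in other genes of the same coding length. It made up over 20% of the span in 327 of the 430, over 50% in 94 and over 90% in 9. A median of 2 introns together reached 50% of the span, over the 422 genes whose transcript itself spanned 200 kb or more. An intron of over 100 kb stood in 200 of the long genes, 259 such introns in all, and in 99 of the other genes.

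Genes with nearly all of their span in 1 intron had few exons. PCDH9, a protocadherin, had 99.9% of its 222 kb in its single intron, LRRTM4 97.1% in the second of its 2 introns, and CTRB1_copy5, a model named after a chymotrypsinogen, 94.7% in the last of 10. KCTD16, an auxiliary subunit of GABA-B receptors, had 94.5% and KCNB2, a voltage-gated potassium channel, 92.0% of the span in its single intron. Coding lengths of KCTD16 and KCNB2 differed little from the mouse genes, with 1284 and 2718 bases in the mole and 1281 and 2721 in the mouse. Both mouse genes also had 2 coding exons, and the single introns measured 249 and 345 kb in the mole and 271 and 396 kb in the mouse. The smallest shares among models that filled their gene line were those of SYNE1, at 4.52%, and of DNAH7, a dynein heavy chain of cilia with 64 exons, at 4.86%. NXPH1 (1.01%), C10orf11_copy2 (2.28%) and TMEM108 (3.55%) were lower still, but their gene lines reached far beyond their transcripts.

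The longest intron was the first coding intron in 89 long genes, 20.7% (16.96 to 24.8), where the share in all other genes with an intron was 34.5%. From 1000 coding bases up the shares within a class of coding length lay closer together. They were 16.8% of long genes and 19.7% of others from 2000 to 2999 bases, 15.4% and 16.9% from 3000 to 4999, and 14.5% and 16.1% at 5000 or more. From 1000 to 1499 bases they were 31.5% and 30.7%, and from 1500 to 1999 bases 24.5% and 25.02%. In the class from 500 to 999 bases, with 38 long genes, the shares were 28.9% (15.4 to 45.9) and 44.3% (42.9 to 45.8), and the intervals overlapped. Below 500 bases, with 7 long genes, they were 71.4% (29.04 to 96.3) and 66.2% (64.1 to 68.3). Over genes with at least 3 introns, the longest lay in the 5′-most of 3 equal parts of the intron list in 231 of 414 long genes, 55.8% (50.9 to 60.6), against 51.6% of others, and was the last in 3.38% against 12.3%. The share of last introns was not set against coding length.

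Introns were longer at every position. In models with at least 10 introns, 305 of them long, intron 1 had a median of 6.39 kb in long genes (5.03 to 10.97) and 1.47 kb in others. Intron 2 measured 11.96 kb (8.16 to 15.5) and 1.44 kb, and the last intron 2.996 kb (2.57 to 3.64) and 0.881 kb. In both sets the last intron was the shortest of those measured. With the introns of a gene cut into 5 equal parts by number, the longest fell in the 5′-most part in 44.6% of the long genes and 42.4% of the others, and in each other part in 12.8% to 14.4% of the long genes and 12.2% to 16.7% of the others. Introns before the first coding exon are not in these models, so an intron within a 5′ untranslated region is not counted.

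**Figure D4:**
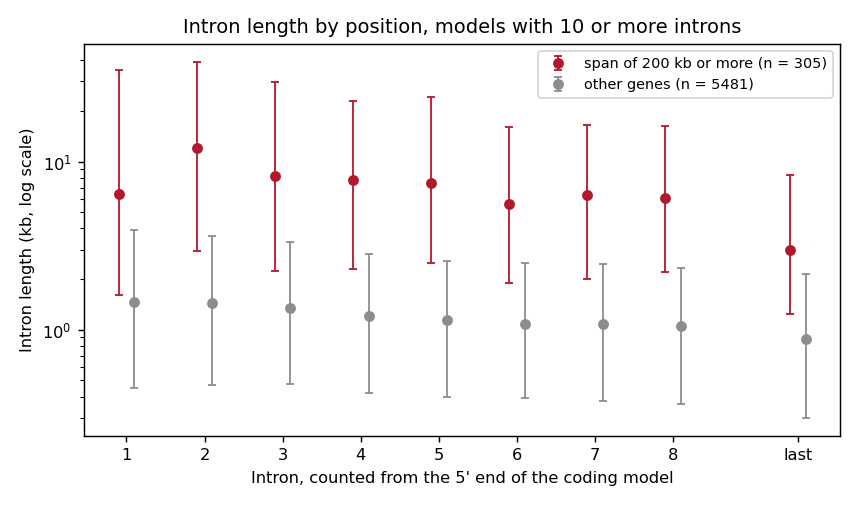
Length of introns 1 to 8 and of the last intron (x axis, counted from the 5′ end of the coding model) in models with at least 10 introns; points are medians and bars run from the first to the third quartile (y axis, kb, log scale). Long genes (red, n = 305) peak at intron 2 with 11.96 kb and end at 2.996 kb, and other genes (grey, n = 5481) run from 1.47 to 0.881 kb.

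The functions of the long genes were described through 36 gene families taken whole by symbol and 2 lists, of fragile-site genes and of gonad genes, all written with earlier results of these data known. Over all 16196 symbols, 423 had a long locus, 2.61%, and the median span was 13.8 kb. The symbol families held 141 of the 423 long symbols, 33.3% (28.9 to 38.0), against 9.92% of all symbols. GRID2IP, UNC50 and CTNNBL1 fell among the glutamate receptors, guidance genes and catenins by symbol alone, and were not long. A symbol counted as long with any long locus, also a copy of lower score. With only the locus of highest score, 7 IgLON and related adhesion genes, 7 CSMD, LRP and other giant genes and 8 ADAMTS and thrombospondin-domain genes were long. So were 11 ZNF genes, 2 olfactory receptors and 23 fragile-site genes, and the other groups kept the counts given below.

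Among adhesion proteins of the synapse, 5 of 13 neurexins, contactins and contactin-associated proteins were long. CNTNAP2 (797 kb), CNTNAP5 (628 kb), CNTN5 (356 kb) and NRXN3 (348 kb) were among them, and the median of all 13 was 180 kb. Of 12 neuroligins, LRRTM proteins and teneurins 5 were long, namely LRRTM4 and the 4 teneurins, large transmembrane proteins that bind latrophilins, which spanned 463 kb (TENM1), 384 kb (TENM3), 351 kb (TENM2) and 337 kb (TENM4). In the group of IgLON and other immunoglobulin adhesion molecules 8 of 16 were long, with DSCAM (342 kb), NEGR1 (298 kb) and SDK1 (275 kb) first and LSAMP (235 kb), OPCML (226 kb) and DSCAML1 (215 kb) next. The catenins had 3 of 8, with CTNNA3 (375 kb) and CTNND2 (263 kb) beside CTNNA2. Cadherins with symbols in CDH, of several kinds, had 3 of 22, CDH13 (428 kb), CDH23 (275 kb) and CDH8 (237 kb). The non-clustered protocadherins had 2 of 12, PCDH15 (447 kb) and PCDH9 (222 kb).

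Receptors and channels contributed unevenly. Of 18 genes in the symbol family of ionotropic glutamate receptors 6 were long. Among them were the delta receptor GRID1 (629 kb), GRIK2 (348 kb), GRIA4 (343 kb), GRIN2A (310 kb) and GRIA3 (237 kb). Of 8 metabotropic receptors 3 were long, with GRM8 (555 kb) and GRM5 (313 kb) among them. GABA-A receptor subunits had 2 of 19, GABRB1 (280 kb) and GABRB2 (224 kb). Calcium channel subunits had 6 of 23, led by CACNA2D3 (583 kb) and CACNA1C (450 kb). Ryanodine and IP3 receptors, which release calcium from internal stores, had 3 of 6, RYR2 (441 kb), ITPR2 (362 kb) and RYR3 (354 kb). Potassium channels had 4 of 90, KCNMA1 (478 kb), KCNH7 (388 kb), KCNB2 (375 kb) and KCNT2 (212 kb), and voltage-gated sodium channels 0 of 10, the largest at 74.1 kb.

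Of 32 synaptic scaffold and release proteins 10 were long. DLG2 (580 kb), ERC2 (490 kb), MAGI2 (448 kb), UNC13C (362 kb), CADPS (343 kb) and CADPS2 (322 kb) were the first of them. In the dystrophin complex, which anchors the membrane of muscle and other cells to the matrix, 5 of 17 were long: DMD (709 kb), UTRN (473 kb), LAMA2 (391 kb), SGCD (375 kb) and SNTG1 (225 kb). Axon guidance receptors and ligands had 7 of 50, with DCC (672 kb) and UNC5D (507 kb), receptors for netrin, and ROBO2 (574 kb) and ROBO1 (325 kb), receptors for Slit proteins. SLIT2 (299 kb), a ligand of the Robo receptors, and NTNG1 (298 kb), a membrane-anchored member of the netrin family, were long as well. Eph receptors had 4 long members, EPHA6 (638 kb), EPHA5 (316 kb), EPHA3 (305 kb) and EPHB1 (304 kb), of 22 with the ephrins. Receptor-type protein tyrosine phosphatases had 6 of 20, led by PTPRM (607 kb), PTPRG (500 kb) and PTPRK (417 kb). Among ERBB receptors and neuregulins, 1 of 7 was long, ERBB4 (444 kb).

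Outside the cell surface of neurons, 9 of 31 ADAMTS and thrombospondin-domain proteins were long, led by THSD7B (552 kb), THSD4 (479 kb) and ADAMTSL1 (346 kb). The group of CSMD, LRP and other giant cell-surface proteins had 8 of 24, with CSMD3, LRP1B, CSMD2 (453 kb), HMCN1 (375 kb) and RELN (316 kb) among them. Collagens had 4 of 40, COL6A6 (301 kb), COL19A1 (275 kb), COL24A1 (249 kb) and COL6A5 (210 kb), laminins 1 of 12 (LAMA2), and glypicans and heparan sulfate enzymes 2 of 25, GPC6 (443 kb) and GPC5 (315 kb). Phosphodiesterases had 3 of 23, PDE4B (399 kb), PDE1A (266 kb) and PDE4D (225 kb), and protein kinases C and G 2 of 11, PRKCE (455 kb) and PRKG1 (446 kb). Splicing regulators and related RNA-binding proteins had 4 of 27, KHDRBS2 (366 kb), RBMS3 (364 kb), MSI2 (351 kb) and RBFOX1 (210 kb).

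Transcription factors were long in a few lineages. SOX5 (335 kb) and SOX6 (309 kb) were 2 of 11 SOX genes, a family whose median span was 1.43 kb. EBF1 (389 kb), NFIA (354 kb), TCF12 (321 kb) and TCF4 (225 kb) were 4 of 23 NFI, EBF, TCF and RUNX factors, and NR3C2, the mineralocorticoid receptor (268 kb), and ESR1 (218 kb) were 2 of 46 nuclear receptors. Of 33 forkhead factors 0 were long. Zinc finger genes named ZNF had 12 of 238, of which ZNF668 (367 kb) and ZNF132 (333 kb) were the longest. Other loci lay inside both models, 13 in ZNF668 and 5 in ZNF132. Other families held few or none. Olfactory receptors had 3 of 267, with a median span of 0.960 kb, and solute carriers 3 of 309, with 16.8 kb. The longest olfactory receptor model, OR52K2, held 9 other loci inside. Ribosomal proteins had 0 of 79, with a median of 3.40 kb and a largest span of 46.7 kb. FGF11 to FGF14 had 0 of 4, with a median of 82.2 kb. Mole models of FGF12, FGF13 and FGF14 held 414, 582 and 478 coding bases, against 729, 735 and 756 in the mouse. Their mouse coding spans were 590, 504 and 696 kb.

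The list of genes at common fragile sites was chosen for long genes in other species, so its share is not independent of length. Of 28 of its genes with a locus 24 were long, CNTNAP2, LRP1B, IMMP2L, DMD, NAALADL2 (637 kb) and PARK2 (613 kb) first, and the median of the 28 was 357 kb. The 4 that were not long were ESRRG at 172 kb, RORA at 167 kb, DAB1 at 145 kb and FHIT at 84.3 kb.

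Of 58 gonad genes 3 were long, 5.17%, and the median of the list was 30.9 kb. ZFPM2, a cofactor of GATA4 that is needed for testis formation in mice, spanned 356 kb of scaffold 22 (18991122 to 19346984, plus strand) with 7 exons, and its longest intron was 143 kb. GLI3, a transcription factor of Hedgehog signalling, spanned 270 kb of scaffold 16 with 14 exons, and 28.5% of that was intron 1. ESR1, the estrogen receptor alpha, spanned 218 kb of scaffold 31 (15979934 to 16197675, minus strand) with 7 exons and a longest intron of 68.1 kb. Mouse coding spans of these genes were close for GLI3, with 270 kb in the mole and 249 kb in the mouse, and larger in the mouse for ZFPM2 (356 and 448 kb) and ESR1 (218 and 289 kb).

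Space outside a gene line was not used to choose the genes. The distances to the nearest non-overlapping locus on both sides, summed, had a median of 294 kb for long genes (258 to 323, n = 428), against 46.7 kb for all other genes (45.6 to 47.8, n = 20270) and 49.4 kb for other genes of the same coding length. Quartiles of the long genes were 127 and 612 kb. Medians of long genes by class of coding length ran from 231 to 654 kb, and those of other genes from 41.2 to 58.0 kb. TENM3 had most space, 3444 kb, of which 3374 kb lay on 1 side. CDH8 had 3297 kb, PCDH9 3119 kb, ADGRL3, a latrophilin that binds teneurins, 2800 kb and TENM4 2609 kb. The 5 with least space were ZNF45 with 5.17 kb, ZNF668 with 12.6 kb, IGLL5_copy3 with 15.1 kb, CFAP61 with 16.4 kb and ZNF467 with 18.3 kb.

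The mouse genes of the same names lay in wide spaces too. The same measure in the mouse annotation had a median of 331 kb for the mole's long genes (273 to 404, n = 324), against 49.6 kb for the other genes named once in both (48.1 to 51.4, n = 12069). In the mole, the long genes named once in both had 309 kb and the others 51.8 kb.

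Long genes also stood next to one another. Over loci that were not nested in another, 58 of 858 neighbours of long genes were long, 6.76% (5.17 to 8.65), where 1.99% of the neighbours of other genes were. The 58 made 29 adjacent pairs, of which 5 were of the same symbol. Without those 5 pairs the share was 5.59% (4.15 to 7.35). Each pair was counted from both of its genes, so the counts are not independent and both intervals are too narrow. SYNE1 and ESR1 lay 21.5 kb apart on scaffold 31 on opposite strands. OPCML and NTM, both IgLON adhesion molecules, lay 64.7 kb apart, COL6A6 and COL6A5 51.1 kb, GPC5 and GPC6 1016 kb, IMMP2L and DOCK4 98.4 kb and PDE4D and RAB3C 91.7 kb.

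Other loci lay wholly inside 81 of the long genes, 18.8% (15.3 to 22.9), where 1.91% of other gene lines held one. Per length of gene the intervals overlapped, with 1.08 loci per Mb in long genes (0.911 to 1.26, 151 loci) and 1.23 in others (1.12 to 1.34, 526 loci). These intervals take each locus as independent, although some hosts held several, so they are too narrow as a spread over genes. Of the 151 loci, 146 lay clear of the host's exons, 77 in its longest intron, and 71 had a single exon, 47.0% (38.9 to 55.3), against 24.7% of all gene lines. None of the 151 was on the strand of its host, but 0 of 850 overlapping pairs in the whole file were on the same strand, so this is a property of the file.

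The loci inside were unevenly spread. The 12 hosts with 3 or more held 68 of the 151, and 8 of these hosts were zinc finger genes by name, 6 of them named ZNF. ZNF668 held 13 loci, among them STX4, RNF40 and SRCAP, OR52K2 held 9, mostly other olfactory receptors, and ZNF43 and ZNF45 held 6 each. MED12L, a Mediator subunit, held 5 in its intron 15, of which P2RY12, P2RY13 and P2RY14 encode receptors for nucleotides, and GPR171 is a related receptor. INSR, the insulin receptor, held 4 in its last intron, OR1M1, OR1M1_copy2, MUC16 and ZNF558. Without those 12 hosts the rate was 0.607 loci per Mb (0.484 to 0.753), below that of the other genes, from which no hosts were left out.

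The score that the authors gave each transcript, whose unit is not stated, stood at the highest value of its symbol in 412 of 429 long genes with a symbol, 96.0% (93.7 to 97.7), against 75.6% in others. Within a class of coding length, among genes with an intron, the shares lay closer together. They were 71.4% of long genes and 65.3% of others below 500 bases, with 7 long genes, 86.8% and 79.2% from 500 to 999, and 92.5% and 88.8% from 1000 to 1499. From 1500 to 1999 bases they were 91.8% and 92.04%, from 2000 to 2999 bases 98.9% and 95.1%, from 3000 to 4999 bases 99.04% and 97.5%, and at 5000 or more 100% and 97.0%. Per aligned base of the reference transcript the median score was 1.42 (1.39 to 1.43) in long genes and 1.20 in other genes of the same coding length. A symbol with more than 1 locus stood on 81 long genes, 18.9%, against 36.0% of others. A symbol with 1 locus can only stand at its own highest value. The shares at the highest value therefore also depend on the number of loci and do not measure the quality of a model. The lowest scores were those of CTRB1_copy5 at 13.7% of the highest of the symbol, AUTS2_copy2 at 15.7%, ADAMTS14_copy2 at 17.4%, CSMD1_copy3 at 18.2% and NPAS3_copy2 at 18.7%. Models labelled EVM made up 405 of the long genes, 94.2%, and 63.6% of the others.

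The coding sequences of long models less often came out in whole codons. A coding length that divides by 3 was found in 294 long genes, 68.4% (63.7 to 72.7), against 93.2% of other genes with at least 2 exons (92.9 to 93.6), and in long genes labelled EVM in 67.2%. The share was lower in every class of coding length. From 1500 to 1999 bases it was 75.5% in long genes and 94.6% in others, and from 3000 to 4999 it was 61.5% and 92.7%. In 13 long genes the gene line reached beyond the transcript, and in 8 of them the transcript itself spanned less than 200 kb. These were MIR99AHG, ADRA1B, MGMT, FBXL7, NXPH1, C10orf11_copy2, TMEM108 and PID1, whose transcripts spanned 3.79 kb (NXPH1) to 100 kb (PID1).

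Some long genes were annotated in pieces. DMD, which encodes dystrophin, stood as 3 long models in a row on the plus strand of scaffold 24, with 41.7 and 37.4 kb between them and 74 exons in all. From the first to the last of them was 1692 kb (14685047 to 16377260), against a mouse coding span of 2253 kb. CTNNA3 had 2 long models within 1349 kb, against 1499 kb in the mouse, NRXN3 2 within 1095 kb, against 1537 kb, NPAS3 2 within 848 kb, against 820 kb, and ANKS1B 2 within 784 kb, against 1096 kb. Over pairs of neighbouring models that followed each other on the same reference transcript, 12 symbols had a long piece. A further 13 symbols had no long locus and reached 200 kb only when such pieces were joined, among them SLC9A9, RIMS1, GRM7 and GRIN2B. The counts of long genes in families are therefore counts of models.

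Of the 430 long genes, 325 had a name found once in both the mole file and the mouse annotation, and 105 did not. The mouse coding span was 200 kb or more for 294 of the 325, 90.5% (86.7 to 93.4), where it was so for 5.03% of all 12412 genes named once in both, and for 2.73% of those that were not long in the mole. Seen from the mouse, 294 of its 624 such genes were long in the mole, 47.1% (43.1 to 51.1). The median mouse span of the 325 was 363 kb. The ratio of mole to mouse span was 0.838 (0.799 to 0.886) for the long genes and 0.861 (0.853 to 0.869) for the others. Choosing by mole span moves this ratio up and choosing by mouse span moves it down, and over the 624 long mouse genes it was 0.608.

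**Figure D5:**
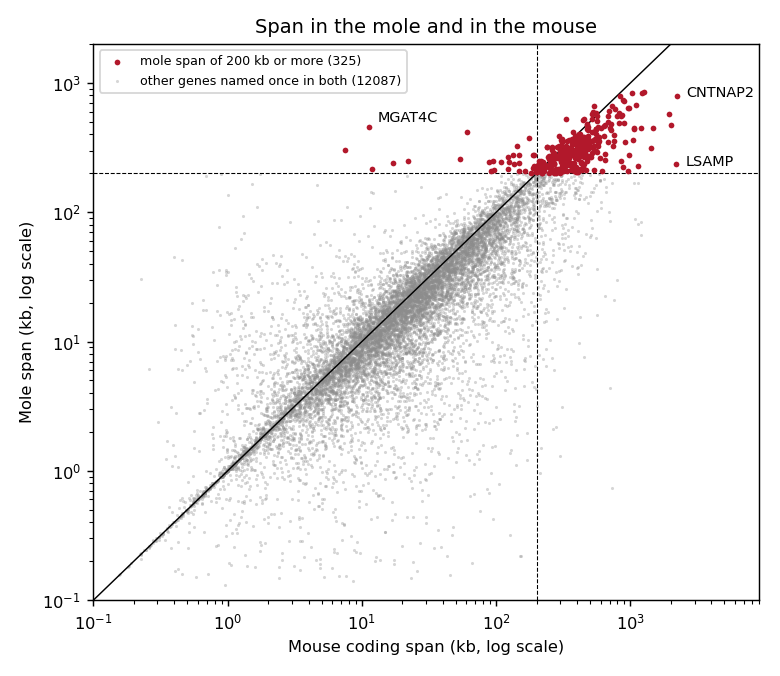
Mole span (y axis, kb, log scale) against mouse coding span (x axis, kb, log scale) of genes named once in both annotations, with the line of equal spans and dashed lines at 200 kb. Of the 325 long mole genes (red), 294 lie to the right of the dashed line; MGAT4C lies far left at 11.2 kb in the mouse, and LSAMP far right at 2190 kb.

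Completeness of the model moved with these differences. Of the 330 genes that were long in the mouse and under 200 kb in the mole, 151 had less than 90% of the mouse coding length, 45.8% (40.3 to 51.3), against 27.6% of the genes long in both and 24.9% of the rest. FHIT had a mole model of 84.3 kb with 255 coding bases, against 1201 kb and 639 coding bases in the mouse. Of the 330, 150 were within 10% of the mouse coding length, and the median ratio of mole to mouse span in these was 0.493 (0.459 to 0.552). All 330 were chosen as longer in the mouse, so a ratio below 1 follows from the choice and says nothing about completeness. KCNIP4, a potassium channel interacting protein, had 750 coding bases in 9 exons in the mole and in the mouse transcript of longest coding length. It spanned 169 kb in the mole and 1134 kb in the mouse, where the span runs over all coding transcripts.

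Among long genes, the smallest ratios were those of LSAMP at 0.107, OPCML at 0.200, CADM2 at 0.216, GPC5 at 0.220 and MACROD2 at 0.238. LSAMP spanned 235 kb with 5 exons in the mole and 2190 kb with 9 exons in the mouse, with 850 coding bases in the mole and 1065 in the mouse. CADM2, an adhesion molecule of synapses, was the lowest of those within 10% of the mouse coding length, with spans of 207 and 957 kb. It had 1247 coding bases in 9 exons in the mole and 1305 in 10 in the mouse. Its intron 1 in the mole, 75.5 kb, was matched to mouse intron 2, 67.3 kb. Intron 1 of the mouse gene measured 737 kb and lay before the matched introns, so the 2 spans do not cover the same introns. Over the 206 long genes within 10% of the mouse coding length the median ratio was 0.886 (0.843 to 0.921). Within this limit a mole model can still lack exons of the mouse gene, and the mouse span runs over all coding transcripts. In ERBB4, with 26 exons in the mole and 28 in the mouse, intron 1 of the mole was matched to mouse intron 3. The part of such differences in the median ratio was not tested. Of the 206 genes, 57, 27.7%, spanned more in the mole than in the mouse, against 34.3% of the other genes within the limit. TTN spanned 275 kb in both species, and SYNE2 249 kb in the mole and 256 kb in the mouse with 115 exons in each.

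The largest ratios of all belonged to models that differed in structure from the mouse gene. MGAT4C had 454 kb in the mole and 11.2 kb in the mouse, but its model held 556 coding bases in 6 exons and the mouse gene 1434 in 3 coding exons. ZFP30 (40.2 times), ZFP82 (18.02 times), ZSCAN21 (14.3 times) and FCRL5 (11.3 times) all had more coding bases in the mole than in the mouse, for ZFP30 7079 against 1644. Within 10% of the mouse coding length the largest ratios were 2.30 for COL6A5 (210 and 91.1 kb), 2.28 for KDM4C (324 and 142 kb), 2.25 for ATP10B (244 and 108 kb) and 2.18 for INSR (269 and 123 kb). KDM4C, a histone demethylase, and COL6A5 had the same number of coding exons in both species, 21 and 39. INSR had 15 in the mole and 21 in the mouse. The longest mole introns of COL6A5 (125 kb), ATP10B (81.6 kb) and INSR (188 kb) could not be matched to a mouse intron. That of KDM4C, 85.8 kb, was matched to a mouse intron of 15.0 kb.

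Exon lengths allowed the longest intron of 259 long genes to be matched to a mouse intron. It had been taken as the longest of the mole gene, and was the longest of the mouse gene as well in 145, 56.0% (49.7 to 62.1), against 48.8% of 6269 other genes (47.6 to 50.1). The matched intron had a median ratio of 0.972 (0.949 to 1.01). Over all 6403 matched introns of long genes 47.2% were longer in the mole, and 47.5% of 77425 in the others. Matched introns of long genes followed the mouse lengths across sizes, with a median ratio of 1.04 below 1 kb in the mouse, 0.997 from 1 to 5 kb, 0.948 from 5 to 20 kb, 0.920 from 20 to 50 kb, 0.913 from 50 to 100 kb and 0.868 at 100 kb or more (n = 172). The classes were cut on the mouse length, which also divides the ratio, and the part of that choice in the fall was not tested. A fall was also seen in the other genes, from 1.05 below 1 kb to 0.787 from 50 to 100 kb. In the other genes introns of 100 kb or more in the mouse had a median ratio of 0.225 (n = 70), with a median length of 38.5 kb in the mole and 127 kb in the mouse. These genes had been chosen as under 200 kb in the mole, and the part of that limit in the ratio was not tested.

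The long genes were found on every mouse chromosome except Y, where 4 genes were named once in both. Their share of the genes named once in both ran from 1.17% on chromosome 11 (12 of 1022) to 4.35% on chromosome 13 (18 of 414).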

How the data were processed

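The study sequenced RNA of mole and mouse gonads with standard Illumina protocols, per the labels' protocols, and the submitters' processing notes list mm9 as a build and STAR 2.6.1d as a tool without saying what each was used for. The file read here is the annotation of the mole assembly talOcc3. Starts and ends are 1-based positions in bases, as deposited. On transcript lines the authors deposited a score, with the stretch of a reference transcript that each model covers and a maximum for its symbol. The sources used here do not say how the score was computed or how models labelled EVM, exonerate or ALN were built. Columns of per-sample values that went unused numbered 0. The file holds no counts, so library depth is unknown, and the planned comparison of expression was not analysed here.

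Span was end minus start plus 1 of the gene line, and 200000 bases or more made a long gene. Introns were the gaps between coding parts of the transcript, numbered from the 5′ end. Copy suffixes and low-confidence marks were removed from names to give symbols. Space was the sum of the distances, left and right, to the closest locus that did not overlap the gene. Classes of coding length had borders at 500, 1000, 1500, 2000, 3000 and 5000 bases. For the mouse, the coding span over all transcripts of each protein-coding gene was taken from GENCODE M21 (GRCm38); that choice was made after the values for the transcript of longest coding length had been seen. Mouse coding lengths, exons and introns were those of the transcript of longest coding length. Introns were matched by aligning the lists of exon lengths in order (reward 2 for equal lengths, penalty 1 for unequal lengths or gaps). Pieces were neighbouring models of a symbol on the same strand and reference transcript that overlapped on it by under 100 bases, with at most 5 loci between. No coordinate was converted between builds. Python 3.11.15, numpy 2.4.6, pandas 2.3.3, scipy 1.17.1 and matplotlib 3.10.9 were used. On simulated data the steps were tested as well, where the span, exons, introns, space and loci inside of 3000 genes were all recovered.

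The members, families and lists were chosen with earlier results of these data known, and the limits for pieces, the 10% tolerance in coding length, hosts of 3 or more loci, the multiple of 3, adjacent long genes and the junctions shown were chosen after the values were seen, as was a correction of the pattern for ribosomal proteins. The rule for named genes took the 10 longest, the 5 on each side of the threshold, the 5 at each end of longest-intron share, exon number, coding length, space and mole to mouse ratio, the 5 with most loci inside and with the lowest score, all long gonad genes, and up to 6 of each family. Others were named after their values were seen: KCNIP4, FHIT, KDM4C, COL6A5, ATP10B, TTN and SYNE2 against the mouse, the adjacent pairs, the pieces, the hosts and loci inside, and genes at the junctions. A few genes that the rule would name are not reported here.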

Additional observations from a re-analysis of the deposited data

How the results depend on the processing

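Of 118 values recomputed under other settings, 93 stayed within the 95% interval of the reported value or within 1.5 times the reported count, 25 moved and 0 turned round. Nearly all were counts, medians, rates or shares of a single set of genes, which have no direction that could turn round. Values of the other genes were recomputed only with 10 equal classes. Differences between long and other genes were therefore not tested under the remaining settings. Most of the values that moved did so with the span limit. With 150, 300 and 500 kb the number of genes was 700, 190 and 43, the share with a mouse span of 200 kb or more 76.1%, 96.6% and 100%, and the share of long symbols in a symbol family 28.3%, 44.9% and 45.2%. With 300 and 500 kb the longest intron made up 28.4% and 26.8% of the span and the space was 350 and 530 kb, and with 500 kb the coding length was 2928 bases and the loci inside 0.666 per Mb. The score per aligned base was 1.39 with 150 kb and 1.45 with 500 kb. Space was 588 kb to neighbours on the same strand and 225 kb on the larger side alone. Loci inside numbered 0.570 per Mb when those with 1 exon were left out, and 0.607 without hosts of 3 or more loci. In genes with at least 10 exons the longest intron made up 26.9% of the span and was the first in 15.3%. Within 10% of the mouse coding length the ratio to the mouse was 0.886 and the longest intron 26.6% of the span. Gene lines against transcript lines, EVM models alone, symbols alone, the best locus of each symbol, scaffolds annotated to 1000000 bases or beyond, 10 equal classes and the mouse transcript of longest coding length moved nothing past these limits. Of these, the scaffold limit kept all 430 genes and so could move nothing, and symbols alone kept 429. The settings with the 10% limit and without hosts of 3 or more loci were chosen after seeing the data. No paired analysis was possible because no value belongs to a library. Models in pieces, and models shorter than the mouse coding sequence, limit the count of long genes, so a gene not counted as long may be long in the genome. Depth could not be assessed.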
